A study of Mus musculus with 72 samples.

Results

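Chromosome 12 carried 762 of the 17857 listed integrations of a barcoded mPGK reporter, and all 762 were kept. They were chosen by their listed chromosome alone, in mm9 coordinates, from 6 pools of cells: mPGK-A held 136, mPGK-B 115, mPGK-C 95, mPGK-D 145, mPGK-E 144 and mPGK-F 127. The assay is TRIP, in which many reporters with random barcodes are scattered through a genome and their outputs measured together. The cells were mouse embryonic stem cells of the line EBRTcH3, which makes the tetracycline-controlled transactivator from ROSA26, kept with leukemia inhibitory factor and the inhibitors PD0325901 and CHIR99021. Reporters were delivered by piggyBac transposition, and cells with low eGFP were sorted before the pools were made, so the pools represent that sorted fraction. No pool carried another promoter or treatment, so the groups differ only in which integrations they hold. Each pool was grown as 2 separate cultures of the same cells, the technical replicates, and p-values from counts in these cultures measure only the spread between them.

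A reporter with a fixed promoter reads out its surroundings: in open, transcribed chromatin it is usually more active, and in condensed chromatin, such as the regions held at the nuclear lamina, it is usually repressed. PGK is a housekeeping gene of glycolysis whose promoter works in most cell types, and every reporter here carries the same copy of it. The piggyBac transposon inserts at short TTAA sites and is known to favour open chromatin. Expression here is the log2 ratio of a barcode's share of the RNA reads to its share of the DNA reads, averaged over both cultures and set to 0 at the median of its pool, so a value of 1 means a 2-fold higher output per template than the median reporter of that pool.

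The barcodes of the 5 reporters with the highest expression, and of the 5 with the most DNA reads among those without any RNA read, are shown because each is the tag by which 1 integration was followed in DNA and RNA. They are given as listed in the deposited table, wholly in capitals since every base belongs to the tag.
highest, position 88155527: GTTTTCGCTCATGAGT
highest, position 88140290: ACGGGATTATTGTCAA
highest, position 88162960: TATCTAATAGCGTAAC
highest, position 4364527: GTCGCTGAGCGGGTAC
highest, position 85802478: CAAACTTGGATACACG
lowest, position 121247272: CTTCACGTAGTTAGAA
lowest, position 13362860: ACGGTTCATAAGCCTA
lowest, position 96267886: GATGGTTTCAGTTGGC
lowest, position 104828669: CTAACACTGTATCTGC
lowest, position 63131514: GGTAGACGGTAAAACC

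The 3 strongest reporters sat together and came from 2 pools. GTTTTCGCTCATGAGT (mPGK-D, plus strand) gave 5.93 and 5.46 in the cultures, 53.1-fold above the pool median, from 3282 DNA and 53522 RNA reads. Its neighbour 15.2 kb to the left, ACGGGATTATTGTCAA (mPGK-A, plus strand), gave 5.22 and 5.71. Its neighbour 7.43 kb to the right, TATCTAATAGCGTAAC (mPGK-D, plus strand), gave 4.97 and 5.90. The other two of the 5 strongest lay elsewhere: GTCGCTGAGCGGGTAC (mPGK-E, minus strand) gave 5.42 and 5.43 near the proximal end, and CAAACTTGGATACACG (mPGK-B, minus strand) gave 5.69 and 4.92. That last reporter stood beside a reporter of its own pool 10.4 kb away at -0.41, whereas both neighbours of each of the other 4 were called higher.

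The 5 reporters listed as lowest had DNA reads in both cultures and no RNA read in either, so their output is given as a bound from 3 RNA reads over both cultures. In means over regions such reporters enter at the value that the pseudocount of 0.5 RNA reads gives them. They were ordered by DNA reads, and by expression some reporters with few RNA reads fell among them: one at 86687398 (mPGK-A) had 6 RNA reads from 3103 DNA reads and one at 69795450 (mPGK-D) 10 from 3797. CTTCACGTAGTTAGAA (mPGK-C), the most distal integration listed, had 2075 and 1532 DNA reads and an output at least 436-fold lower than the median of mPGK-C. The bounds were at least 140-fold lower for ACGGTTCATAAGCCTA (mPGK-C), at least 98.2-fold lower for GATGGTTTCAGTTGGC (mPGK-E), at least 68.2-fold lower for CTAACACTGTATCTGC (mPGK-D) and at least 67.1-fold lower for GGTAGACGGTAAAACC (mPGK-D). The first 3 of the 5 had no other integration within 100 kb. In all, 9 reporters (1.18%) had no RNA read, at least 1 in each pool, against 1.03% of those on the other autosomes.

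Over the whole chromosome expression spanned 228-fold between the 5th and 95th percentiles, from -4.61 to 3.22. The mean was -0.46 with an SD of 2.40 (n = 762), beside an error SD of 0.84 for a single culture. Reporters over 16-fold above the pool median numbered 15 (1.97%) and those over 16-fold below it 54 (7.09%). On the other autosomes these shares were 2.50% and 6.40%. In edgeR's quasi-likelihood test of RNA against DNA counts, with Benjamini-Hochberg adjustment over all integrations and a threshold of 0.05, 235 of 762 (30.8%) were called higher than their pool's median, against 36.8% of all integrations listed. Another 286 (37.5%) were called lower, against 33.8% of all. The share called lower was greatest in mPGK-D, at 43.4%, and smallest in mPGK-F, at 33.1%. The chromosome therefore held fewer high and more low calls than the series as a whole.

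Whether that shift was shared by the pools was asked with the difference between chromosome 12 and the other autosomes in each pool. The differences were -0.28 in mPGK-A, -0.20 in mPGK-B, -0.44 in mPGK-C, -0.58 in mPGK-D, -0.29 in mPGK-E and 0.053 in mPGK-F. Their mean was -0.29 ± 0.22 (SD, n = 6), with 5 of 6 pools lower and mPGK-F on the other side. The exact sign-flip permutation test over pools gave p = 0.0625 (two-sided), above the threshold, with 0.0312 the smallest p that 6 pools allow. Among the 18 other autosomes 16 had a higher mean. Compared within classes of local density, a comparison added after the data were seen, the difference was -0.19 (exact permutation p = 0.0625).

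The listed integrations ran from position 3427771 to 121247272, a span of 117.82 Mb, at 6.47 per Mb, and 17 of the 18 other autosomes were denser. The median distance to the next integration was 77.1 kb, wider than on any of the other 18 autosomes, where it ranged from 50.6 to 72.7 kb. Integrations with no other within 100 kb made up 23.0%, against 13.2% to 20.2% on those autosomes. The chromosome was thus sparsely and unevenly covered, which sets how finely its landscape can be resolved.

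**Figure D1:**
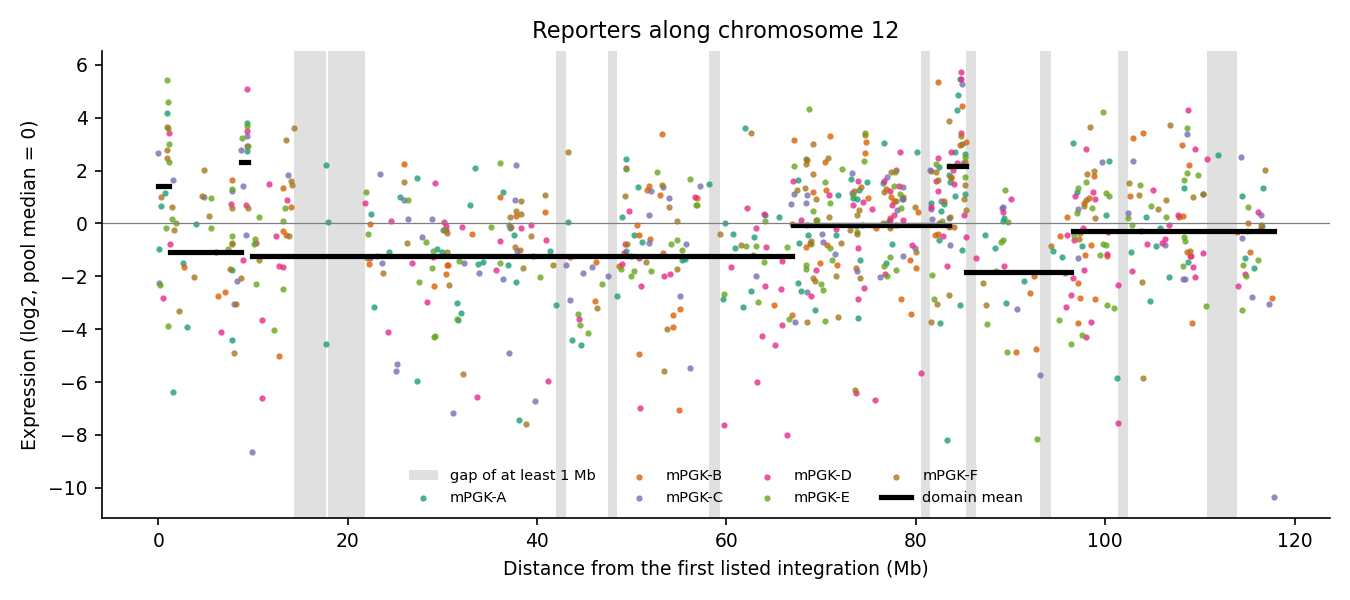
Expression of each of the 762 reporters (log2, pool median at 0) against its distance in Mb from the first listed integration, with 1 colour per pool, domain means as black bars and gaps of at least 1 Mb in grey. The 3 short high bars stand at 1.43, 2.32 and 2.19, and the long low bar of 57.0 Mb at -1.24.

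The landscape was divided into domains, stretches of consecutive integrations with a common mean, by a least-squares partition along the chromosome that used all pools together. It gave 8 domains: 3 high (mean above 1), 3 low (mean below -1) and 2 between. The plot of reporters along the chromosome shows their arrangement. The high domains were short and densely hit: they covered 3.64 Mb with 75 reporters (9.84% of the members), at 20.6 per Mb. The low domains were long and thinly hit, covering 75.6 Mb with 348 reporters (45.7%), at 4.61 per Mb. On the other autosomes 0% to 29.7% of the integrations lay in low domains by the same rule, so chromosome 12 stood above all 18. Domains were drawn from the expression values, so their means and calls are descriptions.

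The proximal end began with a high domain, chr12:3427771-4561408, of 20 reporters from 5 pools with a mean of 1.43 ± 0.60 (SE). It was mixed: its first 7 reporters gave values between -2.82 and 2.67, of which 3 were called lower. The strong signal lay in its right end. A lower penalty on the number of domains set apart chr12:4354348-4561408, where 11 reporters of 4 pools averaged 2.88 and 10 of 11 were called higher. The exception there was a mPGK-E reporter at 4440356 with -3.87 from 4107 DNA reads, flanked at 4415312 and 4485787 by reporters of the same pool with 3.62 and 4.61. mPGK-E supplied 8 of the 20 reporters, mPGK-B none, and the pool means ran from 0.20 in mPGK-C to 2.48 in mPGK-F.

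A low stretch of 7.45 Mb followed, chr12:4697705-12151784, with 40 reporters and a mean of -1.09 ± 0.32 (SE), 20 called lower and 7 higher. The pools were uneven here: the 6 reporters of mPGK-A had the lowest pool mean, while the 8 of mPGK-E averaged 0.013 and the 13 of mPGK-F -1.04. The second high domain, chr12:12214390-12913121, was the shortest, with 15 reporters of 5 pools in 699 kb and a mean of 2.32 ± 0.46 (SE). It held 11 reporters called higher and 1 called lower. Its strongest member, at 12790487 in mPGK-D, gave 5.43 and 4.65 in the cultures, and was flanked at 12787352 by a mPGK-A reporter with 3.80 and at 12791725 by a second mPGK-D reporter with 3.48. None of its 15 reporters was isolated, and mPGK-B had none there.

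The largest domain was low: chr12:13362860-70382555 covered 57.0 Mb with 268 reporters and a mean of -1.24 ± 0.14 (SE). On the other autosomes the longest domain of any class ranged from 19.4 to 117 Mb, and 3 of 18 had a longer one. The mean was below 0 in all 6 pools, at -1.10 in mPGK-A, -1.08 in mPGK-B, -1.48 in mPGK-C, -1.85 in mPGK-D, -1.21 in mPGK-E and -0.56 in mPGK-F. Of its reporters 131 (48.9%) were called lower and 45 (16.8%) higher, and 5 had no RNA read. It was not uniformly silent: 80 of the 268 lay above the pool median. A lower penalty split off chr12:16595002-21139799, where 14 reporters of 6 pools averaged 1.01 with 7 called higher and 1 lower, and chr12:13362860-16576337 before it, where 16 reporters averaged -2.26.

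Past position 70382555 expression rose to a middle level. The domain chr12:70407159-86945797 held 192 reporters with a mean of -0.05, 76 called higher and 58 lower, and at 11.6 per Mb it was more than 2 times as densely hit as the low stretch before it. The pool means ran from -0.36 in mPGK-D to 0.59 in mPGK-B. This stretch ended at the most populated high domain.

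That domain, chr12:86950757-88761195, held 40 reporters of all 6 pools in 1.81 Mb, with a mean of 2.19 ± 0.30 (SE). The pool means were 2.03 in mPGK-A (n = 12), 2.43 in mPGK-B (n = 5), 2.24 in mPGK-C (n = 3), 2.93 in mPGK-D (n = 8), 2.13 in mPGK-E (n = 2) and 1.64 in mPGK-F (n = 10). With these bounds held fixed, the mean without any 1 pool lay between 2.00 and 2.37. This is a description, since the 40 were grouped by their values. Of the 40, 32 were called higher and 2 lower. Within it lay a core of 9 consecutive reporters from 5 pools, chr12:88111883-88273555, all called higher, with values between 2.98 and 5.73 and a mean of 4.34. The 2 reporters called lower were at 87046451 (mPGK-C, -0.81) and at 88085712, a mPGK-A reporter with -3.44 and -2.74 in the cultures from 5282 DNA reads. The latter stood directly before the core, next to reporters at 87847866 with 4.85 and at 88111883 with 2.98.

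**Figure D2:**
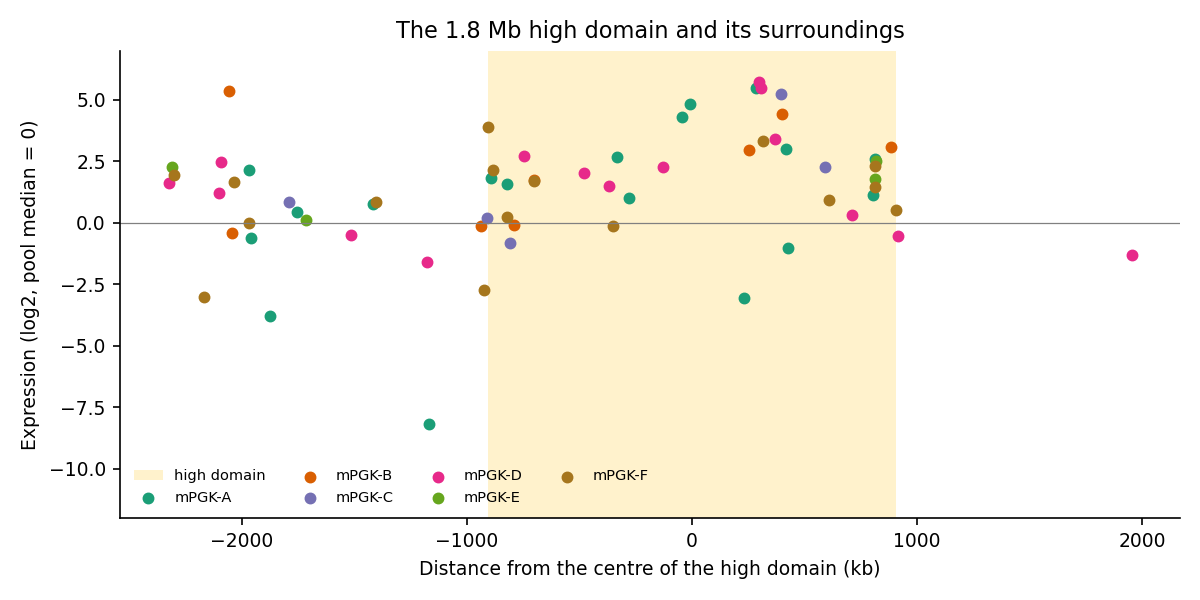
Expression (log2, pool median at 0) of the reporters in and around the high domain chr12:86950757-88761195, against distance in kb from its centre, with 1 colour per pool and the domain shaded. The 9 core reporters between 2.98 and 5.73 lie 256 to 418 kb right of the centre, and beyond the right edge a single reporter at -0.52 is followed by a gap of 1.04 Mb.

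Both edges of this domain fell between close reporters, as the plot of the high domain shows. The width of an edge here is the distance between the reporters on either side of it in this partition. The bounds were not fixed: 82.5% of the domain's reporters stayed in a high domain without replicate 2 and without mPGK-A, and 80% without mPGK-F. On the left 4.96 kb separated a mPGK-C reporter with 0.20 from a mPGK-F reporter with 3.89, and within 200 kb of the edge 8 reporters inside averaged 1.44 and 3 outside averaged -0.88. On the right 11.8 kb separated a mPGK-F reporter with 0.51 from a mPGK-D reporter with -0.52. The step in mean there was the largest of the 7 on the chromosome, a fall of 4.04 log2 units, but outside within 500 kb there was only that 1 reporter, so the right edge rests on it and on reporters past the gap. Of the 7 edges 3 were narrower than 50 kb. The widest, 450 kb, followed the domain that ended at 12913121, and the median was 62.6 kb.

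The low domain to the right, chr12:88773009-99865463, covered 11.1 Mb with 40 reporters, the thinnest coverage of any domain here at 3.61 per Mb. Its mean was -1.85 ± 0.33 (SE), the lowest on the chromosome. The pool means were -1.07 in mPGK-A, -2.41 in mPGK-B, -1.94 in mPGK-C, -1.05 in mPGK-D, -2.69 in mPGK-E and -2.02 in mPGK-F, all below 0. It held 20 reporters called lower and 2 called higher, and 47.5% of its members had no other integration within 100 kb. Its median of 882 DNA reads per reporter was below the 1710 of the whole chromosome. The distal 21.3 Mb, chr12:99974810-121247272, formed a single middle domain of 147 reporters with a mean of -0.27, 49 called higher and 50 lower. Only mPGK-F had a mean above 0 there, at 0.60 over 19 reporters, and mPGK-C had the lowest, -0.72 over 16.

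Whether such domains hold for reporters that were not used to draw them was tested by leaving out each pool in turn, drawing the domains from the other 5 pools and averaging the pool left out. Reporters in high domains exceeded those in low domains by 3.18 in mPGK-A, 3.67 in mPGK-B, 3.74 in mPGK-C, 3.89 in mPGK-D, 3.87 in mPGK-E and 2.29 in mPGK-F. The difference was positive in 6 of 6 pools, with a mean of 3.44 ± 0.62 (SD, n = 6), 10.8-fold, at exact permutation p = 0.0312 (two-sided), the smallest that 6 pools allow. Each high mean rested on few reporters, 3 to 16 per pool, and each low mean on 43 to 62. Not every domain described above was drawn each time. The proximal high domain and the low domain after it were lost when mPGK-A, mPGK-E or mPGK-F was left out. Neither was thus tested in those pools. The low domain at 88773009 was lost when mPGK-E was left out. mPGK-E had 3 reporters in high domains here, though it supplied 8 to the proximal one. mPGK-B had none in the proximal high domain or the one at 12214390, so its 5 lay in the one at 86950757. Only that domain and the long low domain from 13362860 kept most of their reporters in class whichever pool was left out. The test therefore does not cover all domains alike. With only reporters of at least 10 RNA reads in each culture, a choice made after seeing the data, 4 pools gave a value, their mean was 1.98 and the exact permutation p was 0.125, the smallest that 4 pools allow. With a pseudocount 10 times larger, 5 pools gave a value, with a mean of 3.11 and an exact permutation p of 0.0625, the smallest that 5 pools allow.

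**Figure D3:**
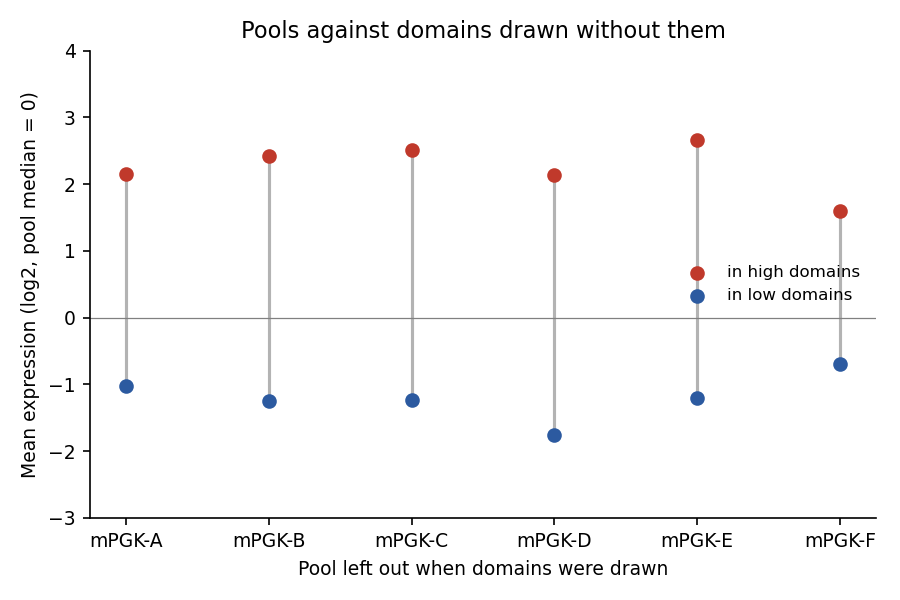
Mean expression (log2, pool median at 0) of each pool's reporters in high domains (red) and low domains (blue) that were drawn without that pool. The high means lie between 1.60 and 2.66 and the low means between -1.76 and -0.69, so the 2 sets do not overlap.

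The domains differed in how firmly they were drawn. Over 13 other settings of the partition, the replicates and the pools, the 57.0 Mb low domain and the high domain at 86950757 to 88761195 were found in 13 of 13, where found means that most of its reporters stayed in its class. The high domain at 12214390 and the low domain at 88773009 were found in 11, the proximal high domain in 9 and the low domain at 4697705 in 7. Some of these were near the bound: the high domain at 12214390 kept 53.3% of its reporters without mPGK-C and without mPGK-F. The proximal high domain kept 55% with the lower penalty and with the larger pseudocount. Without mPGK-E, and likewise with a penalty of 3 times the variance, 1 low domain was left in place of 3, and those lost were the one at 4697705 and the one at 88773009. The proximal high domain and the low domain after it were each lost without mPGK-A, without mPGK-E and without mPGK-F. Without mPGK-A or without mPGK-F 53.3% of the reporters of high domains stayed in one.

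Fixed segments of 20 Mb, whose bounds do not depend on expression, gave a coarser view. Segments 2 and 3, from 20 to 60 Mb, were low: the pool means in segment 3 (n = 112) ran from -1.73 in mPGK-D to -0.92 in mPGK-F, and those in segment 2 (n = 80) from -1.74 in mPGK-C to -0.74 in mPGK-B. Segment 3 was lower than the rest of the chromosome by -1.04 ± 0.14 (SD, n = 6) and segment 2 by -0.87 ± 0.41, each in 6 of 6 pools (exact permutation p = 0.0312, adjusted over the 6 segments p = 0.094). No segment passed the adjusted threshold by the exact permutation test, and 2 of 6 had an unadjusted p below 0.05. With 6 pools no p of this test can fall below 0.0312. After adjustment over 6 segments, passing needs most segments to stand at that value, so the adjusted test cannot decide for a single segment. In segment 3, 16 reporters (14.3%) were called higher and 63 (56.2%) lower.

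**Figure D4:**
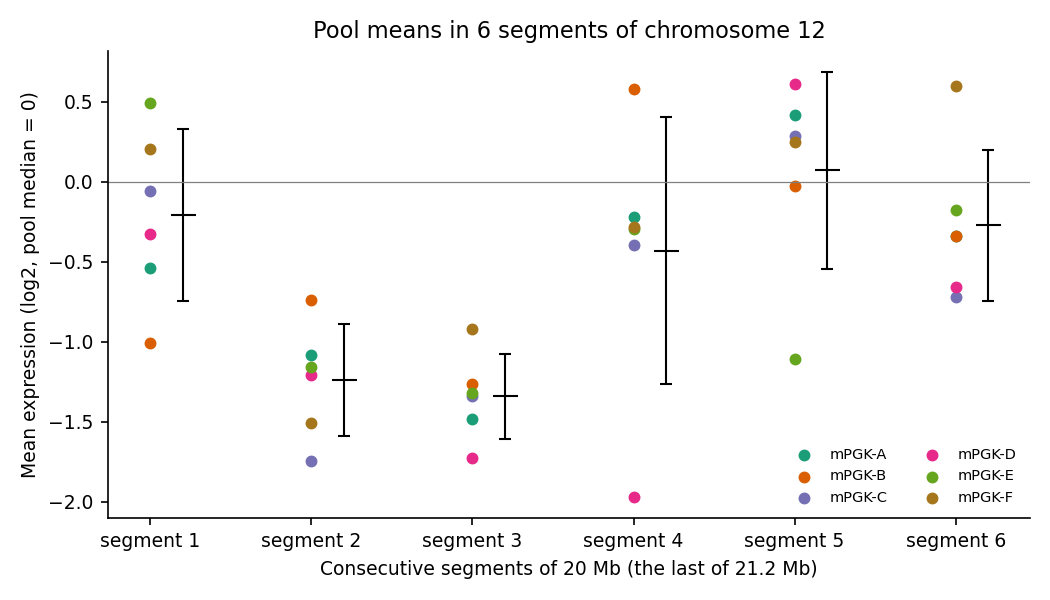
Mean expression (log2, pool median at 0) of each pool, 1 colour per pool, in 6 consecutive segments of chromosome 12, with the mean and SD over pools in black. All 6 pools lie below 0 in segments 2 and 3, while mPGK-D stands apart in segment 4 at -1.97 and mPGK-E in segment 5 at -1.11.

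The other segments were not shared alike by the pools. Segment 4 had pool means of -0.22 in mPGK-A, 0.58 in mPGK-B, -0.39 in mPGK-C, -1.97 in mPGK-D, -0.29 in mPGK-E and -0.28 in mPGK-F, so mPGK-D with 30 reporters stood below the others. Segment 5 had the highest mean over its reporters, 0.12 (n = 165), yet mPGK-E averaged -1.11 over 24. The differences from the rest of the chromosome were 0.027 ± 0.88 (SD) in segment 4 and 0.69 ± 0.88 in segment 5 (exact permutation p = 0.94 and 0.125). Segment 1, which holds the 2 proximal high domains and the low stretch between them, averaged -0.040 (n = 104), and segment 6 averaged -0.29 (n = 146).

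Windows of 2 Mb located the extremes within these stretches. Of 61 windows 3 were empty and 54 held at least 5 reporters of at least 3 pools. In 3 of these the mean was above 1 and in 22 below -1. The highest, chr12:88000001-90000000, averaged 2.17 ± 0.47 (SE) over 24 reporters, with all 6 pools above 0. The window chr12:4000001-6000000 averaged 1.16 ± 0.65 over 21 reporters, from one without an RNA read at 4979987 up to 5.43. The third, chr12:60000001-62000000, was of another kind: its 6 reporters from 5 pools all lay between 0.71 and 1.49, inside the long low domain. The fourth, chr12:12000001-14000000, averaged 0.94 over 21 reporters and held the silent reporter at 13362860 beside the strong ones.

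The lowest window, chr12:96000001-98000000, had only 5 reporters, 1 from each of 5 pools: -4.75 in mPGK-B, -5.72 in mPGK-C, -0.87 in mPGK-F, -1.04 in mPGK-A and, in mPGK-E, GATGGTTTCAGTTGGC without an RNA read, at least 98.2-fold lower than the pool median. All were below 0 and 3 were called lower. In chr12:34000001-36000000 all 10 reporters of 5 pools lay below 0, with a mean of -3.20 ± 0.65 (SE) and 7 called lower. In chr12:42000001-44000000 the mean of -3.02 ± 1.34 over 6 reporters was carried by a mPGK-F reporter without RNA reads and a mPGK-C reporter at 43238978 with -6.74. The latter had 41074 DNA reads and 153 RNA reads. The window chr12:68000001-70000000 averaged -3.01 ± 0.91 over 8 reporters, of which mPGK-D supplied 5 with a mean of -4.07, and this is part of the stretch where mPGK-D stood below the other pools.

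Runs of neighbours on 1 side of the pool median can be read without any partition into domains. The longest run above had 11 reporters from 6 pools at chr12:88445517-88761195, with a mean of 1.72 and 9 called higher. The second had 10 reporters from 5 pools at chr12:12729526-12913121, with a mean of 2.93, and the third was the core of 9 at 88111883. The fourth, 7 reporters from 5 pools at chr12:59576056-61592673, stretched over 2.02 Mb inside the low domain and stayed between 0.71 and 1.69. The longest high run was short for the genome: 17 of the 18 other autosomes had a longer one, the longest of 24.

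Runs below the median were longer and more spread out. The longest, chr12:46934571-52437505, had 19 reporters from 6 pools in 5503 kb with values between -4.58 and -1.27, and 18 of the 19 were called lower. The second, chr12:33778417-35762198, had 17 reporters from 6 pools with a mean of -2.29 and 10 called lower. The third, chr12:93968542-99291127, had 15 reporters from 6 pools with a mean of -3.06 and 11 called lower, and the fourth, chr12:66060989-67370252, had 10 from 5 pools with a mean of -2.20 and 8 called lower. In all, 28 runs of at least 5 lay below the median with 206 reporters, and 19 above it with 119. The share of reporters in such runs, 42.7%, was near the median of the other autosomes, 43.4%.

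Gaps without a listed integration of any pool were longest in the proximal part. The largest, 3.88 Mb between 21362286 and 25245365, was exceeded by that of 2 of the 18 other autosomes. The second, 3.36 Mb between 17777348 and 21139799, lay just before it, and between them stood 3 reporters, all of mPGK-A. The next were 1.92 Mb from 115372583, 1.20 Mb from 96547734, 1.18 Mb from 114195225 and 1.12 Mb from 45410280. In all 11 gaps reached 1 Mb and took up 17.9 Mb, 15.2% of the span. A single mPGK-A reporter at 115372583 separated 2 of the longest gaps.

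Reporters at the rims of the gaps were of all kinds. The left rim of the second gap was a mPGK-F reporter with 3.63 and its right rim a mPGK-A reporter with 2.21, both called higher. The rims of the longest gap gave 0.045 (mPGK-A) and 0.77 (mPGK-D). The reporter alone at 115372583 gave 2.76 and 2.38 in the cultures. At the other extreme the left rim of the gap at 96547734 gave -5.72 (mPGK-C), and that at 104828669 had no RNA read (mPGK-D). Of the 21 rim reporters 7 were called higher and 7 lower, shares near the 30.8% and 37.5% of the whole chromosome. They differed from the other reporters of their pool by 0.51 in mPGK-A, 0.034 in mPGK-B, -0.76 in mPGK-C, -1.28 in mPGK-D and 0.94 in mPGK-F, and mPGK-E had none at a rim. The mean difference was -0.11 ± 0.91 (SD, n = 5, exact permutation p = 0.88).

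With gaps of at least 0.5 Mb the answer changed. The 89 reporters beside such gaps averaged -1.04, against -0.38 for the rest, and were lower in 6 of 6 pools: by -0.19 in mPGK-A, -0.94 in mPGK-B, -1.25 in mPGK-C, -0.56 in mPGK-D, -1.01 in mPGK-E and -0.34 in mPGK-F. The mean difference was -0.72 ± 0.42 (SD, n = 6, exact permutation p = 0.0312). Of these 89, 24 were called higher and 39 lower, where the whole chromosome had 30.8% and 37.5%. A reporter beside such a gap has no neighbour within 100 kb on that side. This comparison therefore overlaps with that of local density below, and the difference was not separated from it. For the 2 gaps of at least 2 Mb the difference had the other sign, 2.29 over 3 pools (exact permutation p = 0.25).

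Local density went with expression in every pool. Reporters with no other integration of any pool within 100 kb (isolated, n = 175) averaged -1.54, those with 1 to 2 neighbours (n = 316) -0.61, those with 3 to 5 (n = 194) 0.048 and those with 6 or more (n = 77) 1.38. The share called higher was 17.1% among the isolated and 58.4% in the densest class, and the share called lower 53.7% and 11.7%. Crowded reporters, with at least 3 neighbours, exceeded isolated ones by 1.55 in mPGK-A, 2.22 in mPGK-B, 3.11 in mPGK-C, 1.76 in mPGK-D, 1.98 in mPGK-E and 1.58 in mPGK-F. The mean difference was 2.03 ± 0.58 (SD, n = 6), 4.09-fold, positive in 6 of 6 pools (exact permutation p = 0.0312, two-sided).

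**Figure D5:**
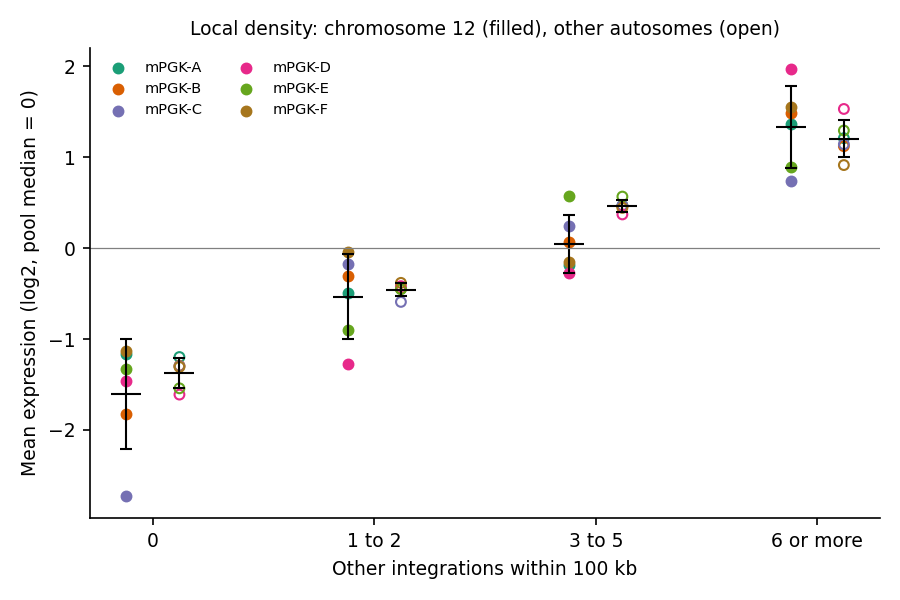
Mean expression (log2, pool median at 0) of each pool's reporters by the number of other integrations within 100 kb, for chromosome 12 (filled) and the other autosomes (open), with the mean and SD over pools in black. The chromosome 12 means over all reporters rise from -1.54 to 1.38 through the 4 classes, and those of the other autosomes from -1.38 to 1.21.

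The test found no difference in this relation between chromosome 12 and the other autosomes. Crowded minus isolated reporters differed by 2.00 on the other autosomes, and the difference between the differences was 0.032 ± 0.63 (SD, n = 6, exact permutation p = 0.91). In the plot by local density the pool means spread more widely on chromosome 12 in every class, with fewer reporters per pool there. Among isolated reporters mPGK-C was lowest: its 25 averaged -2.73, while those of the other 5 pools averaged between -1.83 and -1.13. That mPGK-C mean includes the reporters at 121247272 and 13362860, which had no RNA read and enter at the value of the pseudocount. Across the 762 reporters the number of neighbours had a Pearson r of 0.35 with expression, given as a description since neighbours share their surroundings. The r was -0.005 for the DNA reads of a reporter and -0.017 for the GC content of its barcode.

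Orientation made no detectable difference. The 374 reporters on the plus strand averaged -0.49 and the 388 on the minus strand -0.42. The differences were 0.47 in mPGK-A, -0.45 in mPGK-B, -0.86 in mPGK-C, -0.22 in mPGK-D, 0.17 in mPGK-E and 0.17 in mPGK-F, with 3 pools on each side. Their mean was -0.12 ± 0.49 (SD, n = 6, exact permutation p = 0.56).

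Neighbouring reporters resembled each other, most strongly at 1 to 20 kb. Pairs 1 to 5 kb apart (n = 65) had a Pearson r of 0.59, above that of each of the 18 other autosomes, which ranged from 0.19 to 0.57. At 5 to 20 kb (n = 159) r was 0.47, again above all 18, and at 20 to 50 kb (n = 242) it was 0.23, with 13 of 18 above it. At 50 to 100 kb (n = 386) r was 0.20, with 10 of 18 above. It was higher at 100 to 200 kb (n = 761), 0.24, with 2 above. At 200 to 500 kb (n = 1978) it was 0.15, with 3 above, and at 500 to 1000 kb (n = 3071) 0.091, with 8 above. Pairs of different pools alone gave 0.62 at 1 to 5 kb and 0.49 at 5 to 20 kb. The 28 pairs under 1 kb gave a lower value, 0.22, where the other autosomes together gave 0.43 and 17 of 18 were above. Other measures set chromosome 12 less apart. At 5 to 20 kb 64.2% of pairs lay on the same side of the pool median, against 65.3% on the other autosomes together. At 1 to 5 kb the shares were 69.2% and 65.2%. The median difference within a pair was 1.38 against 1.58 at 5 to 20 kb, and 1.08 against 1.48 at 1 to 5 kb. Pairs share reporters and pool medians, and all these values describe them without a test.

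The closest pairs showed how far reporters in nearly the same place could differ. At 6 places 2 reporters of different pools were listed 1 bp apart in opposite orientations. Both were high at 4357303 (2.79 in mPGK-F, minus) and 4357304 (4.17 in mPGK-A, plus). At 12913120 and 12913121 the minus-strand reporter of mPGK-E gave 2.95 and the plus-strand reporter of mPGK-F 0.60. At 72412164 both were low, -0.65 in mPGK-F (minus) and -2.75 in mPGK-D (plus). The other 3 pairs fell on opposite sides of 0: 0.92 and -0.31 at 77173446, -1.24 and 1.00 at 82027222, and -0.001 and 2.14 at 85889388. The differences ran from 1.23 to 2.35, with a median of 2.13, and the plus-strand reporter was the higher one in 3 of 6. On the other autosomes 58 such pairs of different pools had a median difference of 1.71.

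Some neighbours within 1 kb differed by more than 4 log2 units, at 4 places. At 4979987 a mPGK-A reporter had no RNA read from 246 DNA reads, at least 27.9-fold lower than the median of mPGK-A, while 173 bp away a mPGK-C reporter gave 1.42 and 1.81. At 40467569 and 40468143, 574 bp apart in the same pool, mPGK-C, the first gave -4.90 from 15678 DNA reads and the second -0.060. At 54162877 and 54162994, 117 bp apart in mPGK-B, the values were -4.94 and -0.42, but the first had only 5 RNA reads in all. At 77977383 and 77978058, 675 bp apart, a mPGK-E reporter gave 2.38 and a mPGK-D reporter -2.45, each on the same side in both cultures. The first and the last of these pairs join different pools and the others a single pool.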

How the data were processed

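The deposited table lists pool, barcode, chromosome, position, strand and, per the file headers, raw counts of DNA and RNA reads for 2 replicate cultures. The submitters' processing notes name Bowtie2 2.0 and mm9. The sources used here do not say how PCRs were combined, which barcodes were kept or whether positions count from 0 or 1. Totals over listed barcodes were 3386477 to 3693449 DNA and 2880244 to 3508366 RNA reads per pool and culture, and a reporter of chromosome 12 had a median of 1710 DNA and 448.5 RNA reads. Reads carry no molecular identifiers, so bounds cover counting error only.

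Expression was computed with a pseudocount of 0.5 RNA reads. Counts were tested with edgeR 4.0.16 in R 4.3.3 over all integrations of each pool, shifted to the pool's median ratio, with DESeq2 1.42.0 as an alternative. Other values used Python 3.11.15, numpy 2.4.6 and pandas 2.3.3. Contrasts were differences of means per pool with an exact two-sided sign-flip permutation test over pools. Domains used a penalty of 2 times the variance times ln(n) and at least 5 integrations, and were high above 1 and low below -1. Scripts were tested on simulated data.

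RNA and DNA with the same replicate number in the labels were taken to come from the same culture, which the labels do not state. Their deviations had correlations of -0.0021 to 0.0575. Regions named were all 20 Mb segments and domains, the 4 highest and 4 lowest windows, the 4 longest runs on each side, the 6 longest gaps, the 5 highest and 5 lowest reporters (those without RNA reads first, ordered by DNA reads), and pairs within 1 kb over 4 log2 units apart. Other reporters named beside these were picked after their values were seen. The chromosome, the lists and the tests were chosen with earlier results of these data known. A genome or gene annotation of mm9 was not used here, so no gene is named. The mapping libraries enter only through listed positions.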

Additional observations from a re-analysis of the deposited data

How the results depend on the processing

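The difference between reporters in high and low domains of the pool left out, 3.44, was 3.11 with a 10 times larger pseudocount, 2.76 without mPGK-C and 1.98 with only reporters of at least 10 RNA reads in each culture, an alternative added after seeing the data. These rest on 5, 5 and 4 pools, where the exact permutation test cannot go below 0.0625, 0.0625 and 0.125, so a lost call says nothing about stability. The rim difference at gaps of at least 1 Mb, -0.11, was -1.69 without mPGK-B. There the gaps were drawn anew from the pools left, so the rim reporters were others and mPGK-E also gave a value. It was -0.72 with gaps of at least 0.5 Mb, which passed the exact permutation test. The rim difference, the strand difference and segment 4, none past the threshold, took either sign under the alternatives. The 3 low domains became 1 with a penalty of 3 times and 1 without mPGK-E, for causes not tested. Windows above 1 numbered 7 at 1 Mb and 1 at 5 Mb in place of 3, and windows below -1 numbered 10 at 5 Mb in place of 22. Under the replicate block 232 reporters were called higher and 277 lower, against 235 and 286, and with DESeq2 238 and 287. TMM scaling without the shift gave 210 and 325. Crowded minus isolated reporters kept a positive difference over 15 alternatives. It was 1.43 to 2.19 in log2 units, and 23.5 percentiles by rank within the pool. Chromosome 12 minus the other autosomes stayed negative over 14. It lay between -0.36 and -0.19 in log2 units, and was -3.79 percentiles by rank. No barcode was listed in several pools at the same position, so using such barcodes once changed nothing, and the count test without a replicate was not run because 1 RNA and 1 DNA count leave no residual degrees of freedom. Depth limits the weakest reporters, whose values are set by the pseudocount.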

Other observations

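Replicate cultures were not equally close in all pools. The error SD of a single culture on chromosome 12 was 0.84 in mPGK-A, 0.88 in mPGK-B, 0.69 in mPGK-C, 1.07 in mPGK-D, 0.77 in mPGK-E and 0.67 in mPGK-F. The 10 reporters whose cultures differed most had 14 to 99 RNA reads in all, and 7 of the 10 had none in 1 culture. The widest difference was at 67545371 in mPGK-D, with 0.60 and -5.42 from 49 and 2 RNA reads. Of the 145 reporters of mPGK-D 16 were over 16-fold below the pool median, the largest share of the 6 pools, against 5 of 115 (4.35%) in mPGK-B, and mPGK-F had none over 16-fold above it.

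The 2 ends of the listed chromosome were mixed. The first 5 reporters, from 3427771 to 3690519, gave 2.67, -2.26, -0.95, -2.32 and 1.00, and the last 5, from 120093423 to 121247272, gave 1.35, 2.01, -3.04, -2.81 and, for the last, no RNA read. Of the barcodes on chromosome 12, 42 were also listed in another pool at another position. By length, 742 barcodes had 16 bases, 12 had 15 and 8 had 17.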
